A study of Glycine max with 16 samples.

Results

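NAC transcription factors were followed in soybean leaves as the air around the plant was warmed through the temperature optimum of photosynthesis and into its inhibition by heat. The members were the probe sets that the array's platform annotation assigns to exactly 1 gene whose symbol or synonym is NAC followed by digits, and they numbered 41 of the 61035 probe sets that are not controls. A probe set is the group of short probes that reports a transcript. The 41 probe sets report 20 of the 6031 genes that have such a probe set, and 12 of these genes have more than 1 probe set, so members that share a gene are not independent of each other. A further 5 probe sets are assigned to a NAC gene together with another gene and were not counted as members.

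The samples were first fully expanded leaves of the soybean (Glycine max) cultivar Williams 82, measured on 1 array each, with 4 arrays per state. Growth was at 22 °C and 60% relative humidity, with 10 h of light per day at 350 µmol/m2/s. Gas exchange defined the 4 states. Baseline was the growth temperature, the optimum was the temperature of highest photosynthesis, and the 20% and 30% inhibition states were the hotter temperatures at which photosynthesis had dropped by 20% and 30% from that optimum. The air was warmed from 22 °C towards 42 °C in steps of 2 °C every 10 min, leaves were taken after 20 to 30 min at the state, and a whole curve lasted 3 to 4 h. Temperature and elapsed time therefore cannot be told apart, and no unwarmed plants followed over the same hours enter these comparisons. The labels give 4 plants per state and do not say whether a plant was sampled at more than 1 state.

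NAC proteins are plant-specific transcription factors named after NAM, ATAF and CUC. They bind DNA through a conserved domain at the amino terminus, and a variable carboxyl-terminal region activates or represses transcription. In leaves they are known for roles in the responses to drought and salt, in abscisic acid signalling, in senescence and in programmed cell death. In soybean, GmNAC6 acts downstream of the N-rich proteins NRP-A and NRP-B in a cell death pathway of endoplasmic reticulum and osmotic stress.

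Each value below is a MAS5 signal, the linear intensity that the Affymetrix algorithm gives for 1 probe set on 1 array, and replicates are listed in the order 1 to 4. Changes are differences of mean log2 signal from limma, given ± the standard error of the fit, with a p adjusted by the Benjamini-Hochberg method over all 30517 probe sets tested and a threshold of 0.05. A probe set entered the tests when its log2 signal, averaged over the 16 arrays, exceeded the median of all probe sets, 6.08. This left 33 of the 41 members, which report 18 of the 20 genes. That median includes probe sets assumed not to target soybean, and those of them above it count among the 30517. A level of background was set for each array at the 95th percentile of the probe sets assumed not to target soybean. Its mean over the 4 arrays was 81.8 ± 7.0 (SD) for baseline and 86.2 ± 11.9 for the optimum, and rose to 125 ± 28.1 for 20% inhibition and 112 ± 30.8 for 30% inhibition. Against baseline the exact two-sided permutation p of its log2 was 0.6, 0.0286 and 0.0857 in the 3 warmer states, and 0.6, 0.0857 and 0.129 after adjustment over the 3. The background was highest on replicate 3 of 20% inhibition, at 163.

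Leaf identity was checked with 16 probe sets of photosynthesis genes, of which 13 or 14 lay above background on all 4 arrays of every state, with a summed signal of 273065 to 378160 per array. Of 14 tested, none rose against baseline, 1 fell at the optimum, 6 fell at 20% inhibition and 5 at 30% inhibition. None of 10 probe sets of seed genes lay above background on all 4 arrays of any state. Of 6 probe sets of root nodule genes, 2 lay above background in every state. Their summed signal was 1639 to 2517 at baseline, 3198 to 5015 at the optimum, 5645 to 9138 at 20% inhibition and 6350 to 10516 at 30% inhibition. NOD33 carried most of it, with a mean signal of 1589 ± 364 at baseline and 7914 ± 1836 at 30% inhibition. Of 4 probe sets of the guard cell gene MYB60, 1 lay above background. What part these shifts have in the NAC values was not tested.

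**Figure D1:**
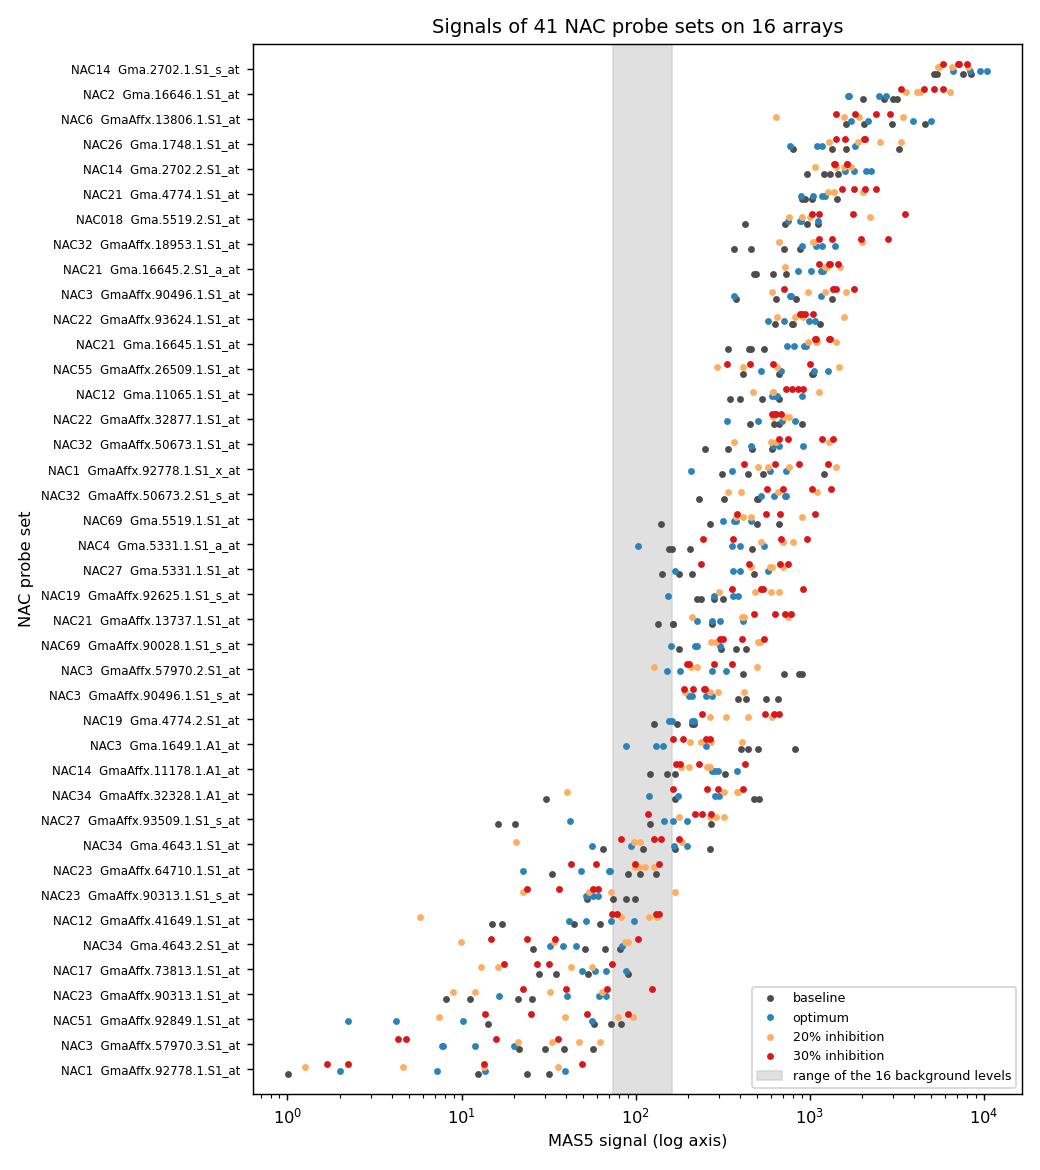
Signals of the 41 NAC probe sets on all 16 arrays, on a log axis, with 1 point per array coloured by state and the range of the 16 background levels in grey. Of the 33 tested probe sets, 27 lay above background on every array, whereas 119 of the 128 values of the 8 untested probe sets lay below it.

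NAC transcripts changed in both directions, and 19 of the 33 tested probe sets, or 57.6%, passed the threshold in at least 1 of the 5 comparisons, beside 44.2% of all probe sets tested. Those 19 report 10 genes, several through more than 1 probe set. Probe sets of NAC21, NAC19, NAC32, NAC2, NAC27, NAC4, NAC018, NAC12 and NAC14 rose, and the only falls past the threshold belonged to NAC3. In leaf tissue, more transcript per cell and more cells that make the transcript cannot be told apart.

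At the optimum, 6 of 33 NAC probe sets passed, or 18.2%, against 12.9% of all probe sets tested. Of the 6, 3 rose and 3 fell, where 6.63% of all probe sets rose and 6.26% fell. With array weights 11 members passed, or 33.3%, 8 higher and 3 lower, while the calls among all probe sets went from 3932 to 5590. With only the 18 members above the upper quartile of signal tested 3 passed, or 16.7%, all higher. The quartile is that of the 61035 probe sets that are not controls. Of all probe sets above it 3262 passed, a larger share than among the members. At 20% inhibition 14 passed, or 42.4% against 35.6%, with 11 higher and 3 lower. Higher calls were thus 33.3% of the tested members, beside 17.0% of all probe sets, and lower calls were 9.09% beside 18.6%. At 30% inhibition 15 passed, or 45.5% against 34.7%. There 12 were higher and 3 lower, or 36.4% and 9.09% of the members, beside 16.9% and 17.7% of all probe sets. The median log2 change of the 33 members was 0.17, 0.52 and 0.79 in the 3 warmer states, while the median over all probe sets tested was -0.00, -0.01 and -0.01. A moderated F-test for any difference among the states called 12 members, or 36.4% against 35.5%, so for that test the NAC share lay near the background. Of the genes named above, NAC27, NAC4, NAC018 and NAC12 had no probe set past this F-test (adjusted p = 0.0577 to 0.123). The NAC32 probe sets GmaAffx.50673.1.S1_at and GmaAffx.50673.2.S1_s_at did not pass it either (F-test adjusted p = 0.0549 and 0.0572).

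The values of the 4 arrays of a warmer state did not overlap those of baseline for 8 members at the optimum, beside 19.7% of all probe sets tested, or 24.2% of the members. At 20% inhibition this held for 4 members, 12.1% beside 32.4%, and at 30% inhibition for 14 members, 42.4% beside 34.8%. Most of the 14 calls at 20% inhibition therefore had overlapping groups.

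The split into higher and lower calls at 20% inhibition depended on the kind of scaling. Quantile normalization, which gives every array the same distribution of signals, left 14 members past the threshold, 11 higher and 3 lower. Median centring moved the split. The median log2 signal of all probe sets lay 0.04, 0.31 and 0.23 above baseline in the 3 warmer states. That median takes in dim probe sets and those assumed not to target soybean. With each array centred on its median, 7 members passed at 20% inhibition, 4 higher and 3 lower, which moved the higher share of the calls from 78.6% to 57.1%. The share of members that passed went from 42.4% to 21.2%, while the calls among all probe sets went from 10863 to 10595. With the array background as a covariate 8 members passed, or 24.2%, beside 7070 of all probe sets. Without the 3 arrays of highest background 6 members passed, or 18.2%, beside 8886 of all probe sets. Those 3 arrays are replicates 2 and 3 of 20% inhibition and replicate 3 of 30% inhibition. Only replicates 1 and 4 of 20% inhibition then remain, so background and the smaller number of arrays cannot be told apart there.

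**Figure D2:**
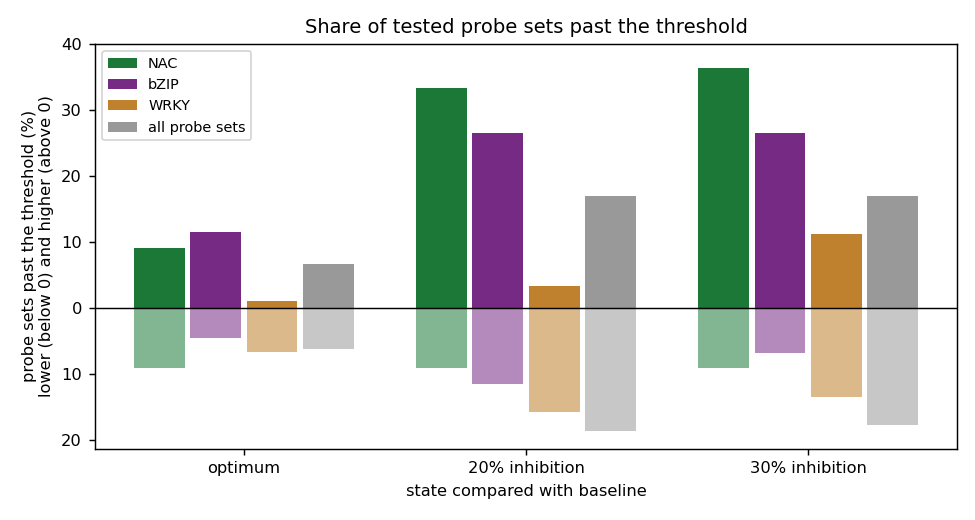
Percentage of tested probe sets past the threshold against baseline in each warmer state, with higher calls drawn above 0 and lower calls below it, for NAC, bZIP, WRKY and all tested probe sets. NAC had 36.4% higher at 30% inhibition, bZIP 26.4%, WRKY 11.2% and all probe sets 16.9%.

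The bZIP and WRKY families of plant transcription factors stand beside NAC as a description, and the differences between families were not tested. Of 87 tested bZIP probe sets, 14 passed in the optimum state, 33 in the 20% state and 29 in the 30% state, with 10, 23 and 23 of them higher. Of 89 tested WRKY probe sets, 7, 17 and 22 passed, with 1, 3 and 10 higher. At 30% inhibition the median log2 change was 0.21 for bZIP and -0.03 for WRKY, beside 0.79 for NAC.

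**Figure D3:**
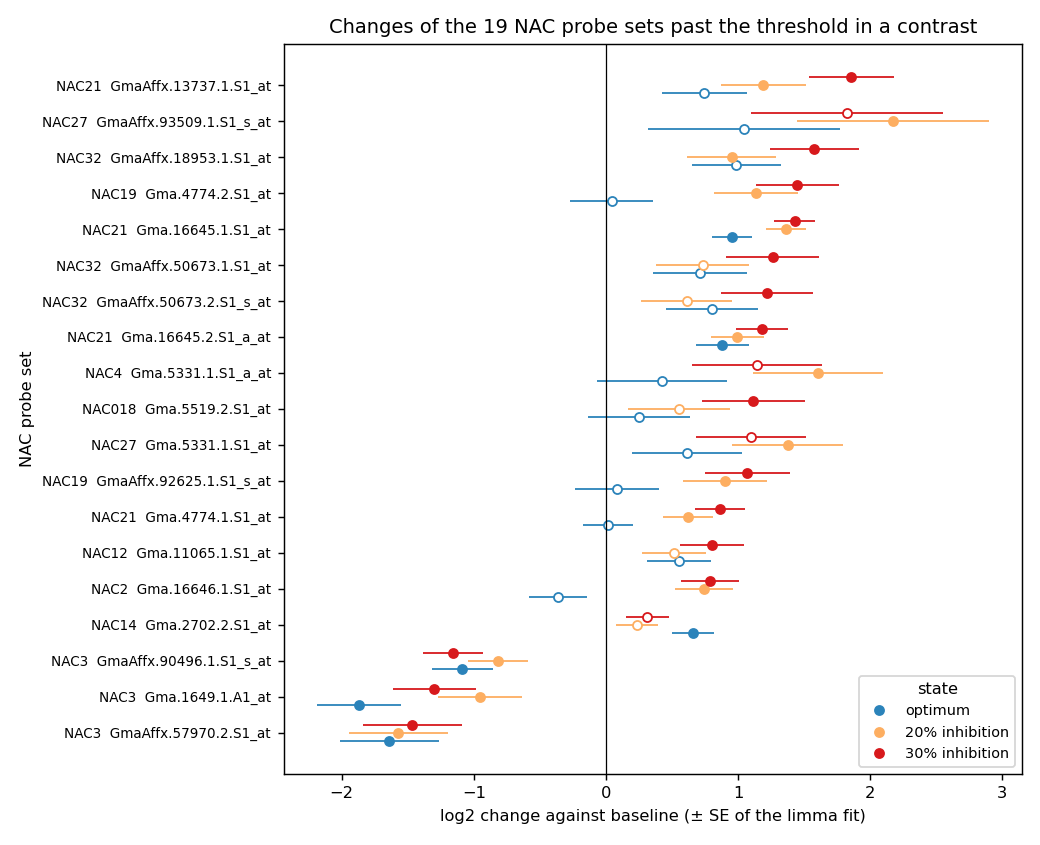
Log2 change against baseline (± SE of the limma fit) of the 19 NAC probe sets that passed in any comparison, at the optimum, 20% inhibition and 30% inhibition, with filled points past the threshold and open points not. NAC21 and NAC3 are the genes with filled points in all 3 states, on opposite sides of 0.

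NAC21, listed with the synonym GmNAC109, had the most probe sets past the threshold. Overexpression of GmNAC109 in Arabidopsis is known to raise salt tolerance and the formation of lateral roots. All 4 tested NAC21 probe sets rose at both 20% and 30% inhibition, and 2 of them had already risen at the optimum.

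On the NAC21 probe set Gma.16645.1.S1_at the signals were 341, 446, 458 and 544 at baseline, and 810.3, 934, 743 and 955 at the optimum. They were 1093, 974, 1415 and 1099 at 20% inhibition and 1078, 1299, 1085 and 1308 at 30% inhibition. Every warmer array lay above every baseline array, and every array of both inhibition states lay above every optimum array. The log2 change was 0.96 ± 0.15 at the optimum (limma adjusted p = 0.000571), 1.36 ± 0.15 at 20% inhibition (adjusted p = 4.1e-06) and 1.43 ± 0.15 at 30% inhibition (adjusted p = 2.63e-06).

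The probe set Gma.16645.2.S1_a_at of the same gene gave 482, 490.1, 613 and 732 at baseline, and 1169.9, 1190.0, 861 and 1022 at the optimum. It gave 1231, 1252, 1504 and 722 at 20% inhibition and 1288, 1308, 1139 and 1465 at 30% inhibition. The optimum and 30% arrays lay above all baseline arrays, while replicate 4 of 20% inhibition fell just within the baseline range. The rise was 0.88 ± 0.20 (limma adjusted p = 0.00722), 1.00 ± 0.20 (adjusted p = 0.000893) and 1.18 ± 0.20 (adjusted p = 0.000214) in the 3 warmer states.

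The NAC21 probe set GmaAffx.13737.1.S1_at had the largest rise of any member at 30% inhibition. Its signals were 163, 165, 134 and 276 at baseline, 413, 305, 227 and 277 at the optimum, 411, 419, 752 and 210.3 at 20% inhibition, and 785, 727, 477 and 636 at 30% inhibition. The 30% arrays lay above all baseline arrays, whereas 1 optimum array and 1 array of 20% inhibition lay within the baseline range. The change was 0.74 ± 0.32 at the optimum (limma adjusted p = 0.149), 1.19 ± 0.32 at 20% inhibition (adjusted p = 0.00812) and 1.86 ± 0.32 at 30% inhibition (adjusted p = 0.00028). The call at 20% inhibition ended with the array background as a covariate (adjusted p = 0.0737) and, with a change of 0.73, without the 3 arrays of highest background (adjusted p = 0.112).

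The fourth NAC21 probe set, Gma.4774.1.S1_at, had a mean signal of 1080.4 ± 242 at baseline, 1083 ± 151 at the optimum, 1674 ± 397 in the 20% state and 1956 ± 374 in the 30% state. Unlike the others it gave a change near 0 at the optimum, 0.02 ± 0.19, and the difference between the probe sets was not tested. It rose by 0.62 ± 0.19 at 20% inhibition (limma adjusted p = 0.0165) and by 0.86 ± 0.19 at 30% inhibition (adjusted p = 0.00206). The call at 20% inhibition ended without replicate 1 or replicate 3 of that state (adjusted p = 0.0591 and 0.0535), after median centring with a change of 0.31 (adjusted p = 0.27), with the background covariate (adjusted p = 0.182) and without the 3 arrays of highest background (adjusted p = 0.0746).

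NAC19, whose synonyms include NAC20, rose at the inhibition states without a change past the threshold at the optimum. Overexpressed GmNAC20 is known to raise salt and freezing tolerance in Arabidopsis. On Gma.4774.2.S1_at the signals were 217, 212, 127 and 172 at baseline, 161, 209.7, 155 and 217 at the optimum, 331, 442, 608 and 267 at 20% inhibition, and 241, 557, 627 and 669.5 at 30% inhibition. All 8 arrays of the inhibition states lay above all 8 arrays of baseline and optimum. The change was 0.04 ± 0.32 at the optimum (limma adjusted p = 0.958), 1.14 ± 0.32 at 20% inhibition (adjusted p = 0.00987) and 1.45 ± 0.32 at 30% inhibition (adjusted p = 0.00191). At 20% inhibition the change was 0.46 with the background covariate (adjusted p = 0.368) and 0.74 without the 3 arrays of highest background (adjusted p = 0.148).

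The second NAC19 probe set, GmaAffx.92625.1.S1_s_at, whose suffix marks probes shared by several transcripts, averaged 266 ± 43.3 at baseline, 296 ± 106 at the optimum, 514 ± 161 in the 20% state and 586 ± 237 in the 30% state. It rose by 0.90 ± 0.32 at 20% inhibition (limma adjusted p = 0.0373) and by 1.07 ± 0.32 at 30% inhibition (adjusted p = 0.0157). The first of these calls ended without any single one of baseline replicates 2, 3 and 4 or replicates 1, 2 and 3 of 20% inhibition (adjusted p = 0.0546 to 0.103) and under 5 other settings (adjusted p up to 0.256), median centring giving 0.59. The second ended without replicate 4 of 30% inhibition (adjusted p = 0.0622), after median centring (adjusted p = 0.0567) and with the background covariate (adjusted p = 0.0802).

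**Figure D4:**
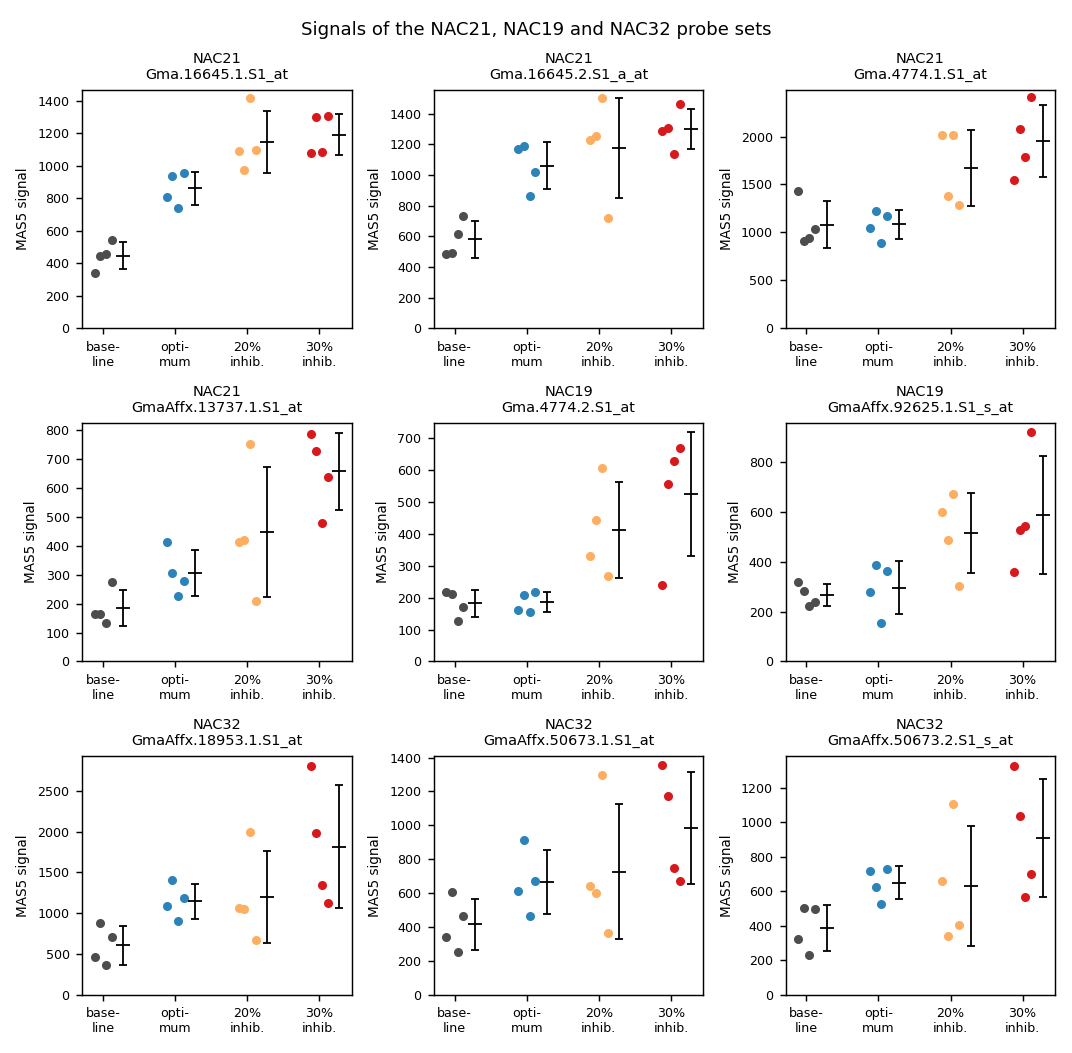
Signals of the 9 tested probe sets of NAC21, NAC19 and NAC32 in each state, with 1 point per array and a black mark for the mean ± SD (n = 4). The 30% inhibition arrays lie above all baseline arrays on the NAC21 probe set Gma.16645.1.S1_at (1078 to 1308 against 341 to 544).

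NAC32 rose at 30% inhibition on all 3 of its probe sets. On GmaAffx.18953.1.S1_at the signals were 458, 885, 367 and 709 at baseline and 1085, 1404, 903 and 1181 at the optimum. They were 1065, 1049, 1993 and 668 at 20% inhibition and 2804, 1980.5, 1339.9 and 1125 at 30% inhibition. All optimum and 30% arrays exceeded all baseline arrays, and replicate 4 of 20% inhibition lay within the baseline range. The change was 0.99 ± 0.34 at the optimum (limma adjusted p = 0.0663), 0.95 ± 0.34 at 20% inhibition (adjusted p = 0.0362) and 1.58 ± 0.34 at 30% inhibition (adjusted p = 0.00164). The call at 20% inhibition ended without any single one of baseline replicates 1 and 3 or replicates 1, 2 and 3 of 20% inhibition (adjusted p = 0.0588 to 0.123) and under 4 other settings (adjusted p up to 0.289), the change falling to 0.57 without the 3 arrays of highest background.

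The NAC32 probe set GmaAffx.50673.1.S1_at gave 339.8, 604, 252 and 464 at baseline, 613, 913, 462 and 669 at the optimum, 643, 599, 1298 and 367 at 20% inhibition, and 1354, 1175, 748 and 671 at 30% inhibition. The probe set GmaAffx.50673.2.S1_s_at gave 321, 504, 232 and 495 at baseline, 719, 626, 525 and 728 at the optimum, 662, 341, 1107 and 404 at 20% inhibition, and 1329, 1035, 569 and 702 at 30% inhibition. On both, the 30% arrays lay above all baseline arrays and the 20% arrays overlapped them. At 30% inhibition the rises were 1.26 ± 0.35 (limma adjusted p = 0.0104) and 1.22 ± 0.35 (adjusted p = 0.0117). The first reached an adjusted p of 0.0511 with the background covariate. At the optimum and at 20% inhibition neither passed, with changes of 0.61 to 0.80.

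NAC2, with the synonym NAC035, had the smallest adjusted p of any member between the optimum and 20% inhibition. Its signals on Gma.16646.1.S1_at were 2667, 3161, 2017 and 3029.8 at baseline, 2729.8, 2499, 1654 and 1687 at the optimum, 4125, 4291, 6377 and 3581 at 20% inhibition, and 5841, 5216, 3337 and 4542 at 30% inhibition. The arrays of both inhibition states lay above all arrays of baseline and optimum, which overlapped each other. The change against baseline was -0.36 ± 0.22 at the optimum (limma adjusted p = 0.331), 0.74 ± 0.22 at 20% inhibition (adjusted p = 0.0141) and 0.79 ± 0.22 at 30% inhibition (adjusted p = 0.01). From the optimum to 20% inhibition the rise was 1.10 ± 0.22 (adjusted p = 0.00266), and it passed under every alternative run. The call at 20% inhibition against baseline ended without baseline replicate 3 (adjusted p = 0.0539), without replicate 3 of 20% inhibition (adjusted p = 0.0508), after median centring with a change of 0.43 (adjusted p = 0.213) and without the 3 arrays of highest background (adjusted p = 0.102). The call at 30% inhibition ended after median centring (adjusted p = 0.11).

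NAC27 is also named SIN1, a salinity-induced factor known for its role in root growth under salt. Both of its probe sets rose at 20% inhibition. On GmaAffx.93509.1.S1_s_at the signals were 20.4, 16.3, 121 and 271 at baseline, 198, 145, 41.7 and 164 at the optimum, 323, 268, 178 and 291 at 20% inhibition, and 118, 239, 273 and 219.6 at 30% inhibition. Baseline replicates 1 and 2 lay below background, replicate 4 lay within the range of 20% inhibition, and the groups overlapped. The change at 20% inhibition was 2.17 ± 0.73 (limma adjusted p = 0.0278), and at 30% inhibition it was 1.82 ± 0.73 (adjusted p = 0.0625).

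The size of this NAC27 change turned on single baseline arrays and on how dim signals were treated. It was 2.92 without baseline replicate 4, the brightest of that state (limma adjusted p = 0.00243), but 1.05 with signals under the background raised to it, 1.49 with 32 added before the log, 1.57 without baseline replicate 2 (limma adjusted p = 0.0973) and 1.67 without baseline replicate 1 (adjusted p = 0.0974). The call also ended without replicate 1, 2 or 4 of 20% inhibition (adjusted p = 0.0652, 0.0543 and 0.0517) and under 3 other settings (adjusted p up to 0.0765).

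The NAC27 probe set Gma.5331.1.S1_at and the NAC4 probe set Gma.5331.1.S1_a_at carry the same source number in their names and may report overlapping transcripts. The NAC4 signals were 156, 207, 161 and 469 at baseline, 548, 396, 103 and 356 at the optimum, 705, 525, 704 and 807 at 20% inhibition, and 362, 244, 683 and 969 at 30% inhibition. All arrays of 20% inhibition lay above all baseline arrays, while the 30% arrays overlapped them. NAC4 rose by 1.61 ± 0.49 at 20% inhibition (limma adjusted p = 0.0175) and gave 1.15 ± 0.49 at 30% inhibition (adjusted p = 0.0833). The NAC27 probe set went from a mean of 253 ± 155 at baseline to 591 ± 100 at 20% inhibition, a rise of 1.38 ± 0.42 (adjusted p = 0.0164), and gave 1.10 ± 0.42 at 30% inhibition (adjusted p = 0.0512). Without baseline replicate 3 the adjusted p at 20% inhibition was 0.0521 for NAC4 and 0.0578 for NAC27, and without baseline replicate 1 it was 0.054 for NAC4. After median centring it was 0.056 and 0.0662, and without the 3 arrays of highest background it was 0.0561 for NAC4.

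NAC12 and NAC018 rose at 30% inhibition against baseline and passed in no other comparison. NAC12 (Gma.11065.1.S1_at) averaged 486 ± 145 at baseline, 698 ± 136 at the optimum, 709 ± 285 in the 20% state and 824 ± 81.9 in the 30% state, where the change was 0.80 ± 0.24 (limma adjusted p = 0.0156). That call ended without baseline replicate 4 (adjusted p = 0.0554), after median centring (adjusted p = 0.0844) and with the background covariate (adjusted p = 0.0963). NAC018 (Gma.5519.2.S1_at) averaged 807 ± 302 at baseline, 911 ± 154 at the optimum, 1225 ± 680 in the 20% state and 1869 ± 1165 in the 30% state, and the 30% arrays overlapped the baseline. Its change of 1.12 ± 0.39 (adjusted p = 0.0341) ended as a call without baseline replicate 1 or 3 or replicate 1 or 2 of 30% inhibition (adjusted p = 0.0693 to 0.122). Without replicate 1 of 30% inhibition the change was 0.75. It also ended after median centring (adjusted p = 0.0949), with the background covariate (adjusted p = 0.062) and with a replicate block (adjusted p = 0.05).

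NAC14, with the synonym GmNAC179, rose at the optimum and passed in no other comparison. On Gma.2702.2.S1_at the mean was 1230.3 ± 203 at baseline, 1937 ± 297 at the optimum, 1454 ± 282 in the 20% state and 1519 ± 148 in the 30% state. The change at the optimum was 0.66 ± 0.16 (limma adjusted p = 0.0121), and after median centring the adjusted p was 0.0812. The other 2 NAC14 probe sets gave 0.41 and 0.79 at the optimum without passing (adjusted p = 0.162 and 0.112). At 20% and 30% inhibition none of the 3 passed against baseline. From the optimum to 20% inhibition the 3 probe sets gave -0.45 to -0.42, and none passed.

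Of the 4 tested probe sets that the annotation assigns to NAC3, with the synonym SNAC23, 3 fell in every warmer state. Related genes can bind the same probes, and which transcript each of the 4 reports was not checked against sequence. On Gma.1649.1.A1_at the signals were 445, 821, 505 and 405 at baseline, 144, 254, 87.7 and 131 at the optimum, 236, 270.0, 407 and 205 at 20% inhibition, and 163, 186, 267 and 253 at 30% inhibition. The optimum and 30% arrays lay below all baseline arrays, and 1 array of 20% inhibition reached the lowest baseline value. The change was -1.87 ± 0.32 at the optimum (limma adjusted p = 0.000868), -0.95 ± 0.32 at 20% inhibition (adjusted p = 0.0263) and -1.30 ± 0.32 at 30% inhibition (adjusted p = 0.00426). From the optimum to 20% inhibition it was 0.91 (adjusted p = 0.0579), so a return from the lowest level did not pass. The call at 20% inhibition ended without baseline replicate 2 (adjusted p = 0.0934), without replicate 1 or 4 of that state (adjusted p = 0.0654 and 0.0701) and with the background covariate (adjusted p = 0.058).

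On GmaAffx.57970.2.S1_at the NAC3 signals were 874, 909.9, 414 and 709.6 at baseline, 179, 330.1, 152 and 275 at the optimum, 225, 127, 499.7 and 209 at 20% inhibition, and 202, 197, 282 and 358 at 30% inhibition. On GmaAffx.90496.1.S1_s_at they were 431, 656, 389.9 and 560.2 at baseline, 255, 275, 203 and 212 at the optimum, 297, 191, 421 and 268 at 20% inhibition, and 212, 249, 248 and 189 at 30% inhibition. On both, the optimum and 30% arrays lay below all baseline arrays, and replicate 3 of 20% inhibition alone lay within the baseline range. The changes of the first were -1.64 ± 0.38, -1.57 ± 0.38 and -1.47 ± 0.38 (limma adjusted p = 0.00808, 0.00356 and 0.00603). Those of the second were -1.09 ± 0.23, -0.82 ± 0.23 and -1.16 ± 0.23 (adjusted p = 0.00482, 0.0106 and 0.000905). All 6 of these calls passed under every alternative run.

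The fourth NAC3 probe set, GmaAffx.90496.1.S1_at, did not follow the other 3 in its values. It averaged 801 ± 410 at baseline, 771 ± 324 at the optimum, 1107 ± 426 in the 20% state and 1320.0 ± 448 in the 30% state, and its groups overlapped. Its changes were -0.02, 0.53 and 0.79 (limma adjusted p of the last 2 = 0.345 and 0.149), and the difference between the probe sets was not tested.

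**Figure D5:**
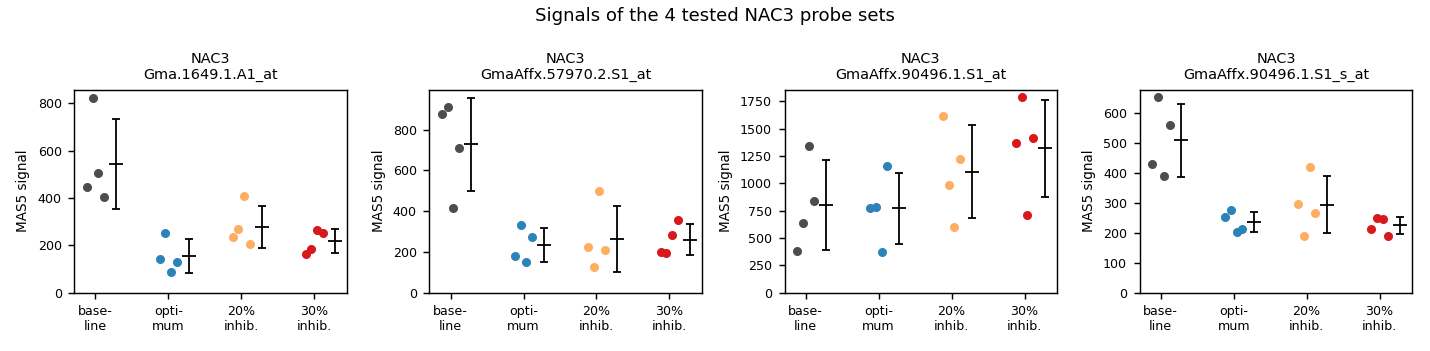
Signals of the 4 tested NAC3 probe sets in each state, with 1 point per array and a black mark for the mean ± SD (n = 4). On 3 of the probe sets the optimum and 30% inhibition arrays lie below all baseline arrays, and on GmaAffx.90496.1.S1_at the states overlap.

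Between the optimum and 20% inhibition 3 members passed, all higher, or 9.09% of the 33 against 16.6% of all probe sets, of which 7.87% were higher and 8.70% lower. The 3 were NAC2, given above, NAC19 on Gma.4774.2.S1_at and NAC21 on Gma.4774.1.S1_at. The NAC19 and NAC21 probe sets share the source number 4774 and may report overlapping transcripts. Called or not, 6 members had groups that did not overlap, or 18.2% beside 20.6%. The NAC19 rise was 1.10 ± 0.32 (limma adjusted p = 0.0256), with no overlap of the 4 arrays on each side. It was 0.50 with the background covariate (adjusted p = 0.405) and 0.69 without the 3 arrays of highest background (adjusted p = 0.264), after median centring its adjusted p was 0.0526, and it did not pass without optimum replicate 1 or 3 or replicate 2 or 3 of 20% inhibition (adjusted p = 0.0615 to 0.0817). The NAC21 rise was 0.61 ± 0.19 (adjusted p = 0.0372). It did not pass without optimum replicate 1, 3 or 4 or replicate 1 or 3 of 20% inhibition (adjusted p = 0.056 to 0.112), nor under 6 other settings (adjusted p up to 0.299), and after median centring it was 0.33.

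Between 20% and 30% inhibition no member passed in limma at an adjusted p under 0.05, and 0 reached an unadjusted p under 0.05. Of all 30517 probe sets tested, 0 passed and 1193 had an unadjusted p under 0.05. No member had groups that did not overlap in this step, beside 2.06% of all probe sets.

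Arrays of a state did not stand equally. Replicate 3 of 20% inhibition had the highest signal of its state for 24 of the 33 tested members and for 15 of the 19 that passed in a comparison. Replicate 3 of the optimum had the lowest signal of its state for 27 of the 33. Without optimum replicate 3 the comparison of 20% inhibition with the optimum called 1 member, without replicate 3 of 20% inhibition it called 1, and without replicate 4 of 20% inhibition it called 6. Those were 3.03%, 3.03% and 18.2% of the members, while 3902, 4065 and 5494 of all 30517 probe sets passed. At 20% inhibition against baseline, 9 members passed without baseline replicate 3 and 9 without replicate 1 of 20% inhibition, or 27.3% in each. Of all 30517 probe sets 9491 and 9585 passed there, larger shares than among the members.

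The 14 tested members that passed in no comparison report NAC1, NAC3, NAC6, NAC14, NAC22, NAC23, NAC26, NAC34, NAC55 and NAC69. Their changes ran from -0.74 to 0.79 at the optimum, from -0.76 to 0.60 at 20% inhibition and from -0.41 to 0.91 at 30% inhibition, with standard errors of up to 0.80. NAC26 (Gma.1748.1.S1_at) averaged 1757 ± 1058 at baseline and 1781 ± 332 at 30% inhibition. The NAC14 probe set Gma.2702.1.S1_s_at averaged 6663 ± 1600.4 and 7072 ± 906 in the same states.

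NAC6, the member of the N-rich protein cell death pathway, did not pass in any state. On GmaAffx.13806.1.S1_at its signals were 2992, 2052, 1611 and 4619 at baseline, 4983, 3933, 1724 and 2164 at the optimum, 1569, 1915, 3436 and 645 at 20% inhibition, and 2394, 2884, 1812 and 1425 at 30% inhibition. The 4 states overlapped. The changes were 0.17 ± 0.45, -0.69 ± 0.45 and -0.34 ± 0.45 in the 3 warmer states (limma adjusted p = 0.865, 0.25 and 0.602), and standard errors of this size leave changes in either direction within range.

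Other genes of that pathway were taken as a list of 11 probe sets of 7 genes, of which 10 probe sets of 6 genes were tested. Against baseline 4 rose at the optimum, 5 in the 20% state and 5 in the 30% state, and none fell. Of all probe sets tested 6.63%, 17.0% and 16.9% rose in these states, and a list of this size, with several probe sets per gene, stands here as a description. NRP-B, an N-rich protein that transmits the death signal, averaged 1729.6 at baseline, 2105 at the optimum, 3633 in the 20% state and 3851 in the 30% state. Its change was 0.25 ± 0.21 at the optimum (limma adjusted p = 0.504), 1.04 ± 0.21 at 20% inhibition (adjusted p = 0.00103) and 1.17 ± 0.21 at 30% inhibition (adjusted p = 0.000414).

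The other 4 rising probe sets report ERD15, which activates the NRP-B promoter, and the chaperone gene BIP4, whose protein class attenuates the pathway. At 30% inhibition ERD15 was higher by 2.01 ± 0.16 and 2.02 ± 0.17 on its 2 probe sets. BIP4 was higher by 1.98 ± 0.14 and 2.84 ± 0.17. The related BIP2 gave 1.02, 0.73 and 0.91 in the 3 warmer states and did not pass (limma adjusted p = 0.131, 0.196 and 0.106). NRP-A gave -0.40 and -0.23 on its 2 probe sets at 30% inhibition without passing. VPE2, a vacuolar processing enzyme of the class that carries out the death programme, gave 0.26 ± 0.71 and 0.08 ± 0.64 on its 2 probe sets and did not pass either.

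A search for abscisic acid and senescence genes by symbol found only stay-green genes and SARK, with no gene of abscisic acid synthesis or signalling. It held 7 probe sets of 4 genes, and 5 probe sets of 3 genes were tested. At the optimum 2 fell, at 20% inhibition 1 fell, at 30% inhibition 0 passed with 1 at an unadjusted p under 0.05, and none rose, beside 6.26%, 18.6% and 17.7% of all probe sets that fell. SARK, a receptor-like kinase of leaf senescence, fell by 0.94 at the optimum (limma adjusted p = 0.0269) and by 0.84 at 20% inhibition (adjusted p = 0.0206) on Gma.10921.1.S1_s_at, and gave -0.69 at 30% inhibition (adjusted p = 0.056). The other 2 tested SARK probe sets passed in no state, with 0.18, 0.21 and 0.05 on one and -0.59, -0.04 and -0.35 on the other. SGR1, a stay-green protein that acts in chlorophyll breakdown, fell by 1.08 at the optimum (adjusted p = 0.0288). It gave -0.28 at 20% inhibition and -0.50 at 30% inhibition without passing. The related SGR2 gave -0.19, 0.46 and 0.31 in the 3 warmer states and passed in none.

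The 8 members below the filter had signals of 1.00 to 167.5, and 3 of them lay below background on all 16 arrays. They were not tested. The NAC23 probe set GmaAffx.90313.1.S1_s_at, with a mean log2 signal of 5.84, and the NAC12 probe set GmaAffx.41649.1.S1_at, with 5.80, lay nearest below the filter. The NAC23 probe set GmaAffx.64710.1.S1_at lay just above it at 6.24.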

How the data were processed

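RNA from 16 leaf samples was hybridised to 16 single-colour Affymetrix arrays. The authors deposited linear signal intensities, made with MAS5 per the submitters' processing notes. Its settings and version are not given in sources used here. MAS5 subtracts a local background and scales each array, so dim signals vary widely and a change in total RNA is not measured. Intensities were taken to log2 with no constant added. The 135 control probe sets of 61170 were left out, and 30517 probe sets above the median mean log2 signal of 6.08 (a signal of 67.6) were tested.

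Limma 3.58.1 under R 4.3.3 fitted a mean per state over all 16 arrays with a prior variance trend (16.4 total degrees of freedom), two-sided. The procedure was tested on simulated data for 30% inhibition against baseline. It recovered 55 of 100 planted changes of log2 size 1 and 82 of 100 of size 2, with 10 false calls. A change of log2 size 1 can therefore be missed. Few changes were planted, with noise independent between probe sets, whereas 10579 probe sets passed in the data. Recovery and false calls in the data can therefore differ from these counts. The number of arrays limits the precision, and no scan batch was used. Background was taken from 23350 PsAffx and HgAffx probe sets, assumed not to target soybean. They were not left out of the medians used for the filter and the centring, nor of the tests where bright enough. Correlation between pairs of arrays ran from 0.803 to 0.967. Members and gene lists were chosen with earlier results of these data known. Every member past the threshold is named. All 16 values are given for the 6 largest rises and 6 largest falls at 30% inhibition (3 fell) and the 2 largest per direction in each other comparison, and for NAC6, added after its values were seen. The 3 members of highest mean signal that passed nowhere are named. Replicate numbers did not pair the arrays: same-numbered deviations correlated from -0.278 to 0.217, and 3 of 16 arrays correlated best with their own number. Alternatives covered scaling, the filter, the floor for dim signals, the added constant, a background covariate, the variance trend, array weights, a replicate block and leaving out arrays. No sequence or genome position was used here.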

Additional observations from a re-analysis of the deposited data

Results flagged for a closer look

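In the optimum state, replicate 2 of NAC12 (Gma.11065.1.S1_at) stood apart at a signal of 902, above the 611 to 648 of the other 3 arrays. Its gap to the nearest array was 0.850 of the range of the state. It was the 1 case among 76 groups of 4 arrays examined, and chance flags about 1 in 20 such groups.

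Probe sets that the annotation assigns to several genes were outside the comparisons and showed changes past the threshold. The probe set shared by NAC022 and NAC2 (Gma.1750.1.S1_at) rose by 0.80 at the optimum, by 1.15 at 20% inhibition and by 1.30 at 30% inhibition on the log2 scale against baseline. The probe set shared by NAC15 and NAC14 (Gma.2702.3.S1_a_at) rose by 0.59 at the optimum against baseline and fell by 0.49 from the optimum to 20% inhibition.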

How the results depend on the processing

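Each of the 38 calls of a member in a comparison was recomputed under up to 27 settings, and 20 passed under every setting run. These were 5 of 6 at the optimum, 4 of 14 at 20% inhibition, 10 of 15 at 30% inhibition and 1 of 3 between the optimum and 20% inhibition. Of 1007 recomputed values, 922 stayed on their side of the threshold, 85 kept the direction but no longer passed, and 0 changed sign.

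At the optimum, where 6 members passed, 3 passed when only probe sets above the upper quartile of signal were tested (18 members; 3 higher, 0 lower) and 11 with array weights (8 higher, 3 lower). At 20% inhibition, 14 of 33 members became 7 after median centring, 8 with the background covariate and 6 without the 3 arrays of highest background. The calls among all probe sets went from 10863 to 10595, 7070 and 8886 in the same fits. That last fit kept only replicates 1 and 4 of 20% inhibition. Above the upper quartile of the 61035 probe sets that are not controls, 5 of 18 members passed, or 27.8%. Of all probe sets there 7633 passed, a larger share than among the members. At 30% inhibition, 15 of 33 members, or 45.5%, became 9 of 18 above the upper quartile, or 50.0%. Of all probe sets above that quartile 7457 passed, a share near that of the members, so the members did not stand out there. Between the optimum and 20% inhibition, 3 became 1 with the covariate and 1 without those 3 arrays, and median centring gave 1 higher and 2 lower. The calls among all probe sets went from 5059 to 2223, 2865 and 5111 there. Fewer members and arrays enter some of these fits, and the cause of the other shifts was not tested. Leaving out each array in turn gave 6 to 7, 9 to 14, 14 to 18, 1 to 6, 0 to 0 and, for any difference among states, 11 to 15 members. Of all 30517 probe sets, 2735 to 4329, 9479 to 10978, 9102 to 11149, 3731 to 5494, 0 to 0 and 9198 to 11302 passed in the same order.

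With replicate number as a block the counts were 6, 13, 15, 2 and 0, and 13 for any difference, and 3 calls of single members were lost. Of all 30517 probe sets 3558, 10473, 10162, 4578 and 0 passed with the block, and 10134 for any difference. Signal over background limits the dim members, and 4 arrays per state limit all of them.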
